A study of Mus musculus with 10 samples.

Results

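The genes described here are 44 genes of DNA replication and S phase, chosen by symbol: the replicative helicase and the factors that load and start it, the enzymes that supply nucleotides, the sliding clamp and its loader, the single-strand binding proteins, the polymerases, the factors that rebuild chromatin behind the fork, and the cyclin and transcription factor that open S phase. All 44 had a row in the bulk table of 17793 genes. The single-cell table of differentiated TSCs had a row for 40 of them, that of TSCs for 43, that of pTSCs for 41 and that of blastoid pTSCs for 43. The bulk and single-cell tables together list 28196 gene symbols.

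Trophoblast stem cells (TSCs) are the cultured counterpart of the trophectoderm, the outer layer of the mouse blastocyst that later forms the placenta. RNA was measured with CEL-Seq2, which barcodes each well or sample and counts transcripts from their 3′ ends with molecular identifiers (UMIs). The deposited single-cell numbers are called UMIs here. All lines had a C57BL/6J background. Each of the 4 single-cell groups had 1 library of 384 wells. The TSC library held line F4 grown in Tx medium. The differentiated TSC library held cells labelled as F4 that had spent 6 days without Fgf4, Tgfb or heparin. The pTSC library held newly derived TSCs grown in LT21 medium, and the blastoid pTSC library held cells of line pTS1 isolated from blastoids, which are blastocyst-like structures assembled from stem cells. All 4 single-cell libraries were labelled as carrying a randomly integrated GFP cassette. The 6 bulk libraries came from TSCs with eGFP knocked in at the Cdx2 coding sequence, sorted into CDX2-high (3 libraries, numbered 37, 38 and 39) and CDX2-low (3 libraries, 40, 41 and 42). CDX2 is a transcription factor that maintains the trophoblast stem state. The labels do not say whether the 3 libraries of a bulk group came from separate cultures, so the p-values measure the spread between these libraries, which may be technical.

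DNA replication is prepared in the G1 phase, when CDC6 and CDT1 load the ring-shaped MCM helicase at origins, and geminin (Gmnn) blocks loading once S phase has begun. CDC45 and the GINS complex then join the MCM ring and activate it, RPA coats the single strands that it exposes, and the clamp PCNA, loaded by the RFC complex, holds the polymerases to the template. Many of the genes involved are induced by E2F transcription factors as cells leave G1, so their transcripts rise before and during S phase. Trophoblast adds a special case, because trophoblast giant cells replicate their DNA without dividing.

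The promoters of the genes were compared first. RefSeq's promoter table (GRCm38.p6, 250 bases before to 50 bases after each start) held 35 of the 44 genes. It was searched on both strands for the core letters of an E2F site (TTCCCGC or TTGGCGC) and of an NF-Y site (CCAAT). An E2F core lay in 21 of the 35 (60%), against 7.79% of all 27025 symbols in the table, and a CCAAT lay in 21 of the 35, against 41.1%. In the 250 bases before the start alone, 13 of the 35 held an E2F core, against 6.45% of all symbols. A match is a run of letters and was not tested for binding. By role, an E2F core lay in 4 of the 5 MCM2-7 genes with an entry, in 5 of the 6 genes of chromatin and DNA methylation at the fork, and in 1 of the 5 nucleotide supply genes. Here and below, the nucleotide supply group counts Ung, which removes uracil from DNA. The chromatin group counts Slbp, which binds histone mRNA. The sequences below belong to the 3 genes with the most single-cell UMIs (Rrm2, Cdt1 and Mcm5) and to Rrm1, the partner subunit of Rrm2. They run 5′ to 3′ on the plus strand, end before the first annotated exon base or the RefSeq start, and carry E2F cores and CCAAT, on either strand, in capitals.
Rrm2: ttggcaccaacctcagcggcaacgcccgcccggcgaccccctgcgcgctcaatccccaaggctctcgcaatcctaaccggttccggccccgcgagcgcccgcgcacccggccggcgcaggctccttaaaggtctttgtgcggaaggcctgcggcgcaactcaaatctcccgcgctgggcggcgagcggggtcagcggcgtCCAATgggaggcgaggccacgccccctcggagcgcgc
Rrm1: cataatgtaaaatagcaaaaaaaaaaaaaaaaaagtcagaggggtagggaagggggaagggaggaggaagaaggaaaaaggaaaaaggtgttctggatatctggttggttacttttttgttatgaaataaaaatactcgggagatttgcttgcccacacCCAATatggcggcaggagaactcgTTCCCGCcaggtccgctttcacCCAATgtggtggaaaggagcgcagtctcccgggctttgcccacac
Cdt1: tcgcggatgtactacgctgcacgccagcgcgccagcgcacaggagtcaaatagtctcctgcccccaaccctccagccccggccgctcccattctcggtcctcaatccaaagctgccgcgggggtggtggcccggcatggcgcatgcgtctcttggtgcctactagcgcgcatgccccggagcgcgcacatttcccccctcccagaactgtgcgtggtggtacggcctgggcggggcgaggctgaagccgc
Mcm5: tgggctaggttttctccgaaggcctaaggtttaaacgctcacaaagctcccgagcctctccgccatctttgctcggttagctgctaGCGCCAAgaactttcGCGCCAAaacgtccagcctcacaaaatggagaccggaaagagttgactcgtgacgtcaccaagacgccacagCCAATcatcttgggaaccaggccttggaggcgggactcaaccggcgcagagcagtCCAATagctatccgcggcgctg
The Rrm2 window (chr12:24708004-24708240) holds a CCAAT starting 50 bases before the start and no E2F core. That of Rrm1 (chr7:102441445-102441694) holds 1 E2F core, which starts 67 bases before the start, between CCAAT matches at 91 and 45 bases. For Mcm5 (chr8:75109259-75109508) there are 2 E2F cores, at 164 and 149 bases, and 2 CCAAT, at 77 and 22 bases. Neither motif lies in the Cdt1 window (chr8:122567765-122568014), whose 2 E2F cores fall in the 50 bases after the start. None of the 4 windows covers an annotated exon in GENCODE M21, and that of Cdt1 lies inside the gene model Gm20388. No match overlapped another in these windows. Rrm2 and Rrm1, which make 1 enzyme, thus differed in these letters.

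Some facts of the libraries bear on all results. Bulk totals were 157588 to 272030 counts in the CDX2-high and 116659 to 138966 in the CDX2-low libraries, so that depth moved with the sort. The transcript of the Cdx2-eGFP allele, which checks the sort, had 130, 207 and 198 counts in CDX2-high and 5, 7 and 14 in CDX2-low libraries. A well counted as a cell from 2000 UMIs upward, not counting mitochondrial genes, which left 318 differentiated TSCs, 318 TSCs, 299 pTSCs and 257 blastoid pTSCs, with median UMIs of 8473, 15091, 6844 and 8242. Mitochondrial genes took 22.9%, 13.8%, 15.1% and 19.3% of the UMIs of these cells, respectively. The differentiated library had 193 UMIs of 4 Y-linked genes and 14 of Xist, where the TSC library, labelled as the same line, had 0 and 1515. These 2 libraries therefore differed in sex-linked transcripts and in culture, so they cannot be taken as the same line before and after differentiation. The parts of line and culture in a difference between them cannot be told apart. The pTSC library (1 Y-linked and 474 Xist UMIs) and the blastoid library (2 and 808) served as further references. Both had the sex-linked pattern of the TSC library, so the same limit holds against them. Columns are named by well, so all 384 names recur in each library and do not mark shared cells. Doublets were not called.

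The bulk comparison asks whether the level of CDX2 within a TSC culture goes with transcripts of the replication machinery. Rrm2, the small subunit of ribonucleotide reductase, rose in CDX2-high libraries, and the rest of the 23 genes abundant enough to test did not pass. Levels are CPM, counts scaled to a common total of the tested genes with TMM. Rrm2 measured 364, 424 and 372 CPM in the CDX2-high libraries and 185, 208 and 265 CPM in the CDX2-low libraries. All CDX2-high values lay above all CDX2-low values. Its log2 fold change was 0.82 (SE 0.24, adjusted p = 0.0437). Adjusted p-values of this comparison come from the quasi-likelihood test of edgeR, adjusted after Benjamini and Hochberg over 3006 genes. This call depends on the setting: DESeq2 gave an adjusted p of 0.189, thinning every library to the smallest total gave 0.101, and leaving out libraries 37, 38, 39, 40 or 41 gave 0.0817 to 0.145 with edgeR.

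Thus 1 of 23 tested genes was called, where 5.89% of all 3006 tested genes were called, 3.09% of them as higher in CDX2-high. An unadjusted p under 0.05 by edgeR was reached by 3 of the 23 (Mcm5, Rrm2 and Pold1), against 19.1% of all tested genes. The log2 fold change was above 0 for 17 and below 0 for 6 of the 23, with a median of 0.18, beside -0.01 over all tested genes. The other 21 of the 44 genes did not pass the filter on low counts: Cdc6, Cdc45, Gins1, Gins2, Gins3, Gins4, Tyms, Ung, Rfc2, Rfc3, Rfc4, Rpa3, Pola1, Pole, Fen1, Chaf1a, Hells, Slbp, Ccne2, E2f1 and Tipin. In a bulk sample, fewer cells in S phase and less of a transcript per cell cannot be told apart.

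In 5 of the 23 genes all CDX2-high libraries lay above all CDX2-low libraries, against 11.5% of tested genes, and in 0 all lay below, against 11.4%. Besides Rrm2 these were Mcm7, Rrm1, Rpa2 and Ccne1. Mcm7, a subunit of the helicase, measured 592, 755 and 558 CPM in CDX2-high and 544, 373 and 520 CPM in CDX2-low, a log2 difference of 0.42 (SE 0.22, edgeR adjusted p = 0.319). The lowest CDX2-high library stood 558 against 544 in the highest CDX2-low one, so the gap was narrow. Rrm1, the large subunit of ribonucleotide reductase, measured 235, 256 and 253 CPM against 215, 95.3 and 219 CPM (0.51, SE 0.29, edgeR adjusted p = 0.355). Its difference came mainly from library 41, the lowest of all 6. Rpa2, a subunit of the single-strand binding protein, measured 129, 135 and 182 CPM against 113, 86.7 and 128 CPM (0.47, SE 0.33, edgeR adjusted p = 0.475). Ccne1, the cyclin E that drives entry into S phase, measured 327, 331 and 332 CPM against 287, 173 and 274 CPM (0.44, SE 0.25, edgeR adjusted p = 0.355). The CDX2-high libraries agreed closely for Ccne1, and library 41 was again the lowest.

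The 4 most abundant of the other tested genes overlapped between the groups. Dnmt1, the maintenance DNA methyltransferase, measured 395, 326 and 372 CPM in CDX2-high and 349, 433 and 283 CPM in CDX2-low libraries. Cdt1, which loads the helicase, measured 273, 470.5 and 328 CPM against 318, 243 and 438 CPM. The spread within each group was wider than the difference of their means for both. Gmnn measured 189.8, 256 and 279 CPM against 174, 259.99 and 246 CPM, and Dut 197, 228 and 226 CPM against 123, 277 and 201 CPM. For Dut both the lowest and the highest library were CDX2-low.

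Within the roles the tested genes were split. Of the helicase subunits, Mcm5 (log2 fold change 0.61, SE 0.29, adjusted p = 0.256), Mcm7 and Mcm4 (0.13) were above 0, and Mcm2 (-0.12), Mcm3 (-0.18) and Mcm6 (-0.11) below it. The licensing factor Cdt1 (0.12) and its inhibitor Gmnn (0.11) lay near 0, and Mcm10, which helps to activate the helicase, had 0.47 (SE 0.41). Dut, the enzyme that removes dUTP, had 0.11. Pcna, the sliding clamp, had the lowest value (-0.50, SE 0.31, adjusted p = 0.412), while its loader subunits Rfc1 (0.23) and Rfc5 (0.33) were above 0. Rpa1 had -0.18. The catalytic subunit of polymerase delta, Pold1, had 0.77 (SE 0.34, adjusted p = 0.216) and the ligase of Okazaki fragments, Lig1, 0.46 (SE 0.32). At the fork's chromatin, Dnmt1 had 0.03, its partner Uhrf1 0.18 and the assembly factor subunit Chaf1b -0.10. None of these passed, and 1 library could move them widely: leaving out each in turn gave -0.70 to -0.17 for Pcna, 0.0014 to 0.59 for Rfc1, 0.20 to 0.90 for Mcm10, 0.52 to 1.28 for Pold1 and 0.21 to 1.08 for Lig1.

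**Figure D1:**
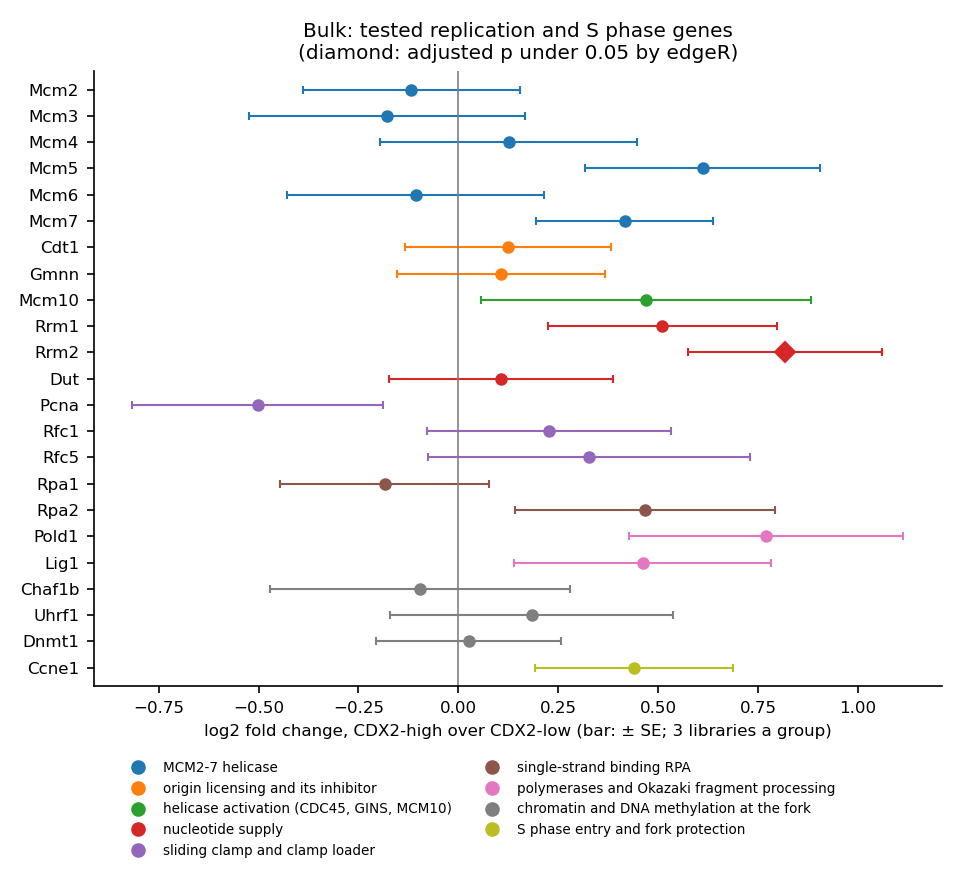
Log2 fold change (x axis, bar ± SE) of the 23 tested genes in CDX2-high over CDX2-low bulk libraries, 3 a group, coloured by role. Rrm2 (diamond, 0.82) was called, 17 of the 23 lie to the right of 0, and Pcna lies farthest to the left.

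Summed over all 44 genes, the libraries held 5877, 6214 and 5986 CPM in CDX2-high and 5272, 4836 and 5449 CPM in CDX2-low, 6026 ± 172 against 5186 ± 316 (SD, n = 3), a ratio of 1.16. Without Rrm2 the sums were 5513, 5790 and 5614 against 5087, 4628 and 5184 CPM, still without overlap. The nucleotide supply genes held 896, 983 and 939 CPM against 605, 667 and 758 CPM, while the chromatin genes held 797, 601 and 740 CPM against 749, 771 and 630 CPM with overlap. Other genes of the cycle were counted in the same libraries. Of all 3006 tested genes, edgeR called 93 higher in CDX2-high libraries and 84 lower. Of 27 tested mitosis and G2 phase genes, 3 rose in CDX2-high libraries and 0 fell, 24 had a log2 fold change above 0, and the median was 0.52. The 3 were Ccnb1 (1.44), Ube2c (1.21) and Cdk1 (0.86, adjusted p = 0.0386 by edgeR). Of 18 further tested replication genes, Ccna2, the cyclin A of S and G2 phase, rose (0.93, adjusted p = 0.0453 by edgeR) and 0 fell, with a median of 0.19. Of 6 tested CDK inhibitors, D cyclins and pocket proteins, Ccnd1 rose (2.51) and 0 fell, with a median of 0.11. Of 4 tested differentiated trophoblast markers 3 fell in CDX2-high libraries, and of 9 tested TSC regulators 1 fell and 0 rose. Their part in the result, like that of depth, was not tested.

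Single cells were compared as sums of counts per library, given as CPM of UMIs outside mitochondrial genes. With 1 library per group there is no test, and the 95% intervals cover counting error only. Each set of 4 values gives differentiated TSCs first, then TSCs, pTSCs and blastoid pTSCs. Genes with at least 10 UMIs over both libraries of a comparison count as measured. The 44 genes summed to 2715, 4285, 5049 and 4431 CPM. The differentiated library was thus the lowest and the pTSC library the highest. Rrm2 alone held 220.0, 442, 1844 and 1199.95 CPM, which is 8.10%, 10.3%, 36.5% and 27.1% of the UMIs of all 44 genes. Without Rrm2 the sums were 2495, 3843, 3206 and 3231 CPM: the TSC library was then the highest, and the pTSC and blastoid libraries differed by less than counting error (ratio 1.01, 95% interval 0.98 to 1.04).

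Differentiated TSCs against TSCs, called the differentiation comparison below, came first. Of 36 measured genes, 12 were at least 2-fold lower in differentiated TSCs than in TSCs and 0 at least 2-fold higher, where 18.0% of 12158 measured genes were at least 2-fold lower and 17.5% higher. The median log2 ratio of the 36 was -0.79, beside 0.05 over all measured genes, and 31 of the 36 were below 0. The interval lay below 1 for 25 genes, above 1 for 0 and held 1 for 11. The summed level was 1.58-fold lower (95% interval 1.54 to 1.62), or 1.54-fold lower (1.501 to 1.58) without Rrm2. Of the 12 genes at least 2-fold lower, the interval held 1 for Ung, Rfc5 and Fen1. The other 9 were Cdc45, Rrm2, Dut, Rfc2, Rfc3, Pole, Chaf1a, E2f1 and Tipin.

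The differentiated library was also set against the other libraries, and its cells are the same as in the comparison above. Against pTSCs 12 of 33 measured genes were at least 2-fold lower and 0 higher, where 22.5% and 20.5% of 11503 measured genes were, and the sum was 1.86-fold lower (1.81 to 1.91), or 1.28-fold lower (1.25 to 1.33) without Rrm2. Against blastoid pTSCs 11 of 33 were at least 2-fold lower and 1, Pcna, higher, where 23.3% and 16.2% of 11600 measured genes were, and the sum was 1.63-fold lower (1.59 to 1.68), or 1.29-fold lower (1.25 to 1.34) without Rrm2. Some genes went the other way: intervals lay above 1 for Mcm6, Cdt1 and Ccne1 against pTSCs, and for Cdt1, Pcna and Ccne1 against blastoid pTSCs. Most markers moved with the contrast to TSCs. The 12 TSC regulators summed to 1882 CPM in differentiated TSCs and 4876 in TSCs, with 10 lower and 2, Tead4 and Ets2, higher. The 13 genes of differentiated trophoblast summed to 5436 and 2099 CPM, all but Ascl2 with a UMI in the differentiated library. Of the 12 measured, 9 were higher and 3, Phlda2, Ascl2 and Hand1, lower. Of the 9 giant cell markers 3 had a UMI in the differentiated library (276 CPM in all, against 44.9 in TSCs and 288 in pTSCs). Bhlhe40 alone held 892 of its 899 UMIs, Hand1 measured 0.922 against 2.60 CPM in TSCs, and Prl3d1, Prl3b1, Prl2c2, Prl2c3, Ctsq and Adm were at 0. The share of mitochondrial UMIs was also higher (22.9% against 13.8%). With mitochondrial genes in the total, the log2 ratio of the sum was -0.82 in place of -0.66. The part of these in the result was not tested.

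The derivation comparison, pTSC against TSC, changed which genes led. Of 36 measured genes 4 were at least 2-fold higher in pTSCs and 5 lower, against 17.6% and 13.9% of 12070 measured genes, and the median log2 ratio was 0.08, beside -0.04 over all. The sum was 1.18-fold higher (1.15 to 1.20), while without Rrm2 it was 1.20-fold lower (1.17 to 1.23), so that the direction of the sum rested on 1 gene. Rrm2 was 4.17-fold higher (3.97 to 4.39), and Dut (2.13, 1.18 to 3.83) and Ung (2.38, 1.04 to 5.50) were higher at few UMIs. Cdt1 was 2.69-fold lower, Cdc45 2.56-fold, Rfc3 3.30-fold and Tipin 2.06-fold, each with an interval that left out 1. Pold1 and Rpa1 passed 2-fold with intervals that held 1. For blastoid pTSCs against pTSCs, 1 of 33 measured genes was at least 2-fold higher and 2 lower, against 13.4% and 9.42% of 11343 measured genes, with a median of 0.00, beside 0.07 over all. Of these 3, Dut had an interval that left out 1 (7 against 25 UMIs), and those of Pcna and Rfc3 held 1. The sum was 1.14-fold lower in blastoid pTSCs, and Rrm2 1.54-fold lower. The pTSC library stands in both of these comparisons. In blastoid pTSCs 8 of 9 measured differentiated trophoblast markers were at least 2-fold higher than in pTSCs, summing to 3809 against 885 CPM, with Gcm1 and Ctsj at 0. The part of these markers in the result was not tested.

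**Figure D2:**
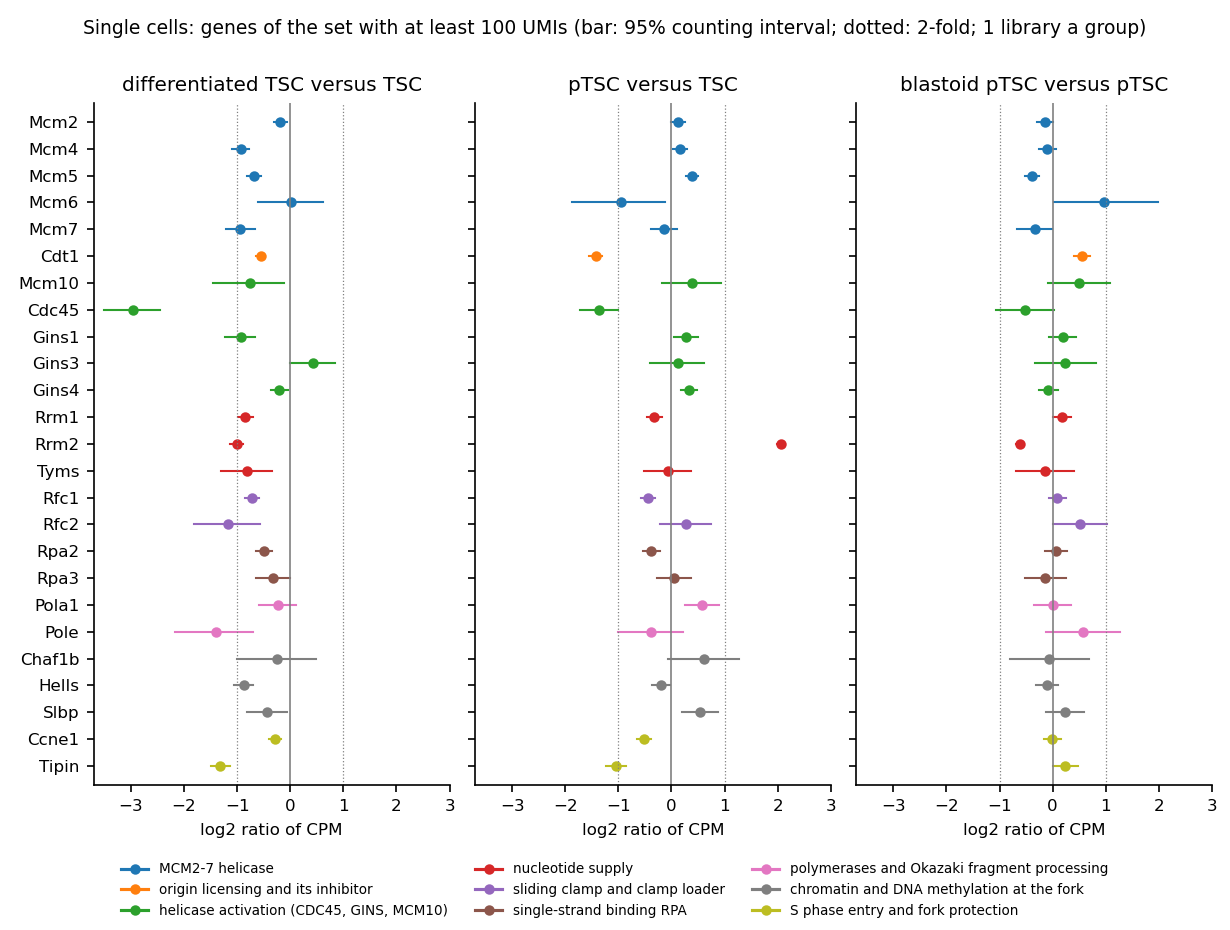
Log2 ratio of CPM (x axis, bar: 95% counting interval, dotted lines: 2-fold) of the 25 genes with at least 100 UMIs over the 4 libraries, in 3 comparisons of 1 library each. In the left panel nearly all points lie left of 0, with Cdc45 farthest, and in the middle panel Rrm2 stands apart at 4.17-fold.

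The helicase genes had 5 of 6 members with at least 100 UMIs. Mcm5 measured 213, 342, 446 and 341 CPM, highest in pTSCs. Mcm2 measured 249, 283, 309 and 280.2 CPM, a narrow range in which the differentiated library was 1.14-fold lower than TSCs. Mcm4 measured 132, 252, 282 and 263 CPM, so that the differentiated library stood apart from 3 like values. Mcm7 measured 44.6, 85.4, 77.5 and 61.3 CPM. Mcm6 measured 12.0, 11.9, 6.15 and 12.1 CPM, lowest in pTSCs, and the differentiated and TSC libraries did not differ beyond counting error (ratio 1.01, 0.66 to 1.53). Together the MCM2-7 genes summed to 650.2, 975, 1121 and 960.3 CPM. The pTSC library was 1.15-fold above TSCs (1.10 to 1.20).

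Cdt1, the licensing factor that loads the helicase, went another way than the helicase. It measured 434, 639, 238 and 349 CPM, highest in TSCs, and pTSCs lay below even the differentiated library. Blastoid pTSCs stood 1.47-fold above pTSCs (1.32 to 1.64). Its partner Cdc6 and its inhibitor Gmnn held 6 and 2 UMIs in all and could not be compared.

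Cdc45, which joins the loaded helicase to activate it, had the largest difference of the 25 genes with at least 100 UMIs in the differentiation comparison. It measured 10.1, 78.7, 30.8 and 21.6 CPM (33, 424, 75 and 50 UMIs), 7.76-fold lower in differentiated TSCs than in TSCs. TSCs were the highest of the 4, and the other 3 libraries lay at or below 30.8 CPM. The GINS subunits, which bind beside CDC45, did not share its order over the 4 libraries. Gins1 (1.91-fold) and Gins4 (1.15-fold) were also lower in differentiated TSCs than in TSCs, but by less than Cdc45. Gins1 measured 42.7, 81.7, 98.9 and 113 CPM, Gins4 153, 176, 222 and 209 CPM, and Gins3 25.8, 19.3, 20.9 and 24.6 CPM. Gins1 and Gins4 were both lower in TSCs than in pTSCs, against the order of Cdc45. Mcm10 measured 8.30, 14.1, 18.5 and 25.9 CPM, in the order of Gins1, and Gins2 held 1 UMI in all.

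Ribonucleotide reductase makes deoxynucleotides and needs both of its subunits, encoded by Rrm1 and Rrm2. Rrm1 measured 159, 285, 228 and 258 CPM while Rrm2 measured 220.0, 442, 1844 and 1199.95 CPM. UMIs of Rrm2 per UMI of Rrm1 were therefore 1.38, 1.55, 8.10 and 4.65, so the subunits parted in pTSCs and blastoid pTSCs. In bulk the same ratio of CPM was 1.55, 1.65 and 1.47 in CDX2-high and 0.857, 2.18 and 1.21 in CDX2-low libraries, with overlap. Tyms, the thymidylate synthase, measured 15.7, 27.5, 26.3 and 23.7 CPM, with like values in the 3 other libraries. Dut held 3, 26, 25 and 7 UMIs and Ung, which removes uracil from DNA, 3, 13, 14 and 8 UMIs.

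At the clamp and its loader, Rfc1, the large loader subunit, measured 194, 319.7, 235 and 251 CPM. Rfc2 measured 8.91, 20.04, 24.2 and 34.5 CPM, and Rfc3 held 11, 51, 7 and 15 UMIs, highest in TSCs. Pcna held 22, 26, 16 and 6 UMIs. Of the single-strand binding genes, Rpa2 measured 155, 217, 167 and 174 CPM and Rpa3 37.8, 47.3, 48.8 and 44.5 CPM. Rpa2 was 1.40-fold lower and Rpa3 1.25-fold lower in differentiated TSCs than in TSCs. Pola1, the catalytic subunit of the polymerase that primes synthesis, measured 32.6, 38.4, 57.0 and 57.0 CPM. Pole, that of the leading strand polymerase, measured 6.45, 17.1, 13.1 and 19.4 CPM and was 2.65-fold lower in differentiated TSCs.

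Among chromatin genes, Hells, a remodeller linked to DNA methylation, measured 105, 192, 167 and 155 CPM and was 1.83-fold lower in differentiated TSCs. Slbp, which binds histone mRNA, measured 26.4, 35.8, 52.1 and 60.9 CPM, lower in differentiated TSCs and TSCs than in pTSCs. Chaf1b measured 7.68, 9.09, 13.9 and 13.4 CPM and its partner in the chromatin assembly factor, Chaf1a, held 10, 40, 21 and 25 UMIs. Of the genes that open S phase, Ccne1 measured 299.9, 364, 254 and 254 CPM, so that differentiated TSCs lay above pTSCs. E2f1, itself a driver of these genes, held 7, 44, 15 and 15 UMIs. Tipin, which protects stalled forks, measured 94.6, 235, 114 and 135 CPM, 2.49-fold lower in differentiated TSCs than in TSCs and 2.06-fold lower in pTSCs. Like Cdt1, Cdc45 and several others of these genes, among them Rfc1, Rpa2 and Hells, it was highest in TSCs.

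Other genes of the cycle were counted the same way. In the differentiation comparison 11 of 50 measured further replication genes were at least 2-fold lower and 1 higher (median -0.28). Of 34 mitosis and G2 phase genes, 12 were lower and 0 higher (median -0.64). Over all measured genes 18.0% were lower and 17.5% higher. Of the 50 further replication genes, 29 had a log2 ratio below 0 and 21 above. The sum of that list was 1.14-fold lower (1.12 to 1.17). Thymidine kinase, Tk1, measured 42.1 CPM in differentiated TSCs and 258 in TSCs, while Asf1a measured 297 and 159 CPM. Of 15 CDK inhibitors, D cyclins and pocket proteins, 3 were higher and 1 lower, with a median of 0.54. The CDK inhibitor Cdkn2b measured 105 and 31.0 CPM and the pocket protein Rb1 123 and 56.2 CPM in differentiated TSCs and TSCs, while Cdkn2a, another inhibitor, measured 13.2 and 36.2 CPM. In pTSCs against TSCs the further replication genes had 6 higher and 5 lower of 53, with a median of -0.02. Of all measured genes 17.6% were higher and 13.9% lower there. In blastoid pTSCs against pTSCs, 5 of 52 were higher and 2 lower, with a median of 0.25, where 13.4% and 9.42% of all measured genes were.

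To compare cells at 1 depth, every cell was thinned to 2000 UMIs and the UMIs of the 44 genes were summed. A cell was called high at 12 or more, the 75th percentile of TSCs, so the TSC share follows from the cut. The share of high cells was 5.97% in differentiated TSCs (19 of 318, exact binomial 95% interval 3.64 to 9.17), 26.7% in TSCs (85 of 318, 21.9 to 32.0), 39.8% in pTSCs (119 of 299, 34.2 to 45.6) and 30.7% in blastoid pTSCs (79 of 257, 25.2 to 36.8). Without thinning, on each cell's fraction of UMIs, the shares were 6.60%, 25.2%, 44.8% and 35.8%. The sum is a range and not a phase: 7, 19, 23 and 11 cells lay at the cut and 13, 22, 20 and 17 cells 1 UMI below it. The order of the TSC, pTSC and blastoid libraries rested on Rrm2. Without it, with the cut taken anew from TSCs, the shares were 10.7%, 32.7%, 18.7% and 23.0%, so that TSCs held more high cells than pTSCs.

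**Figure D3:**
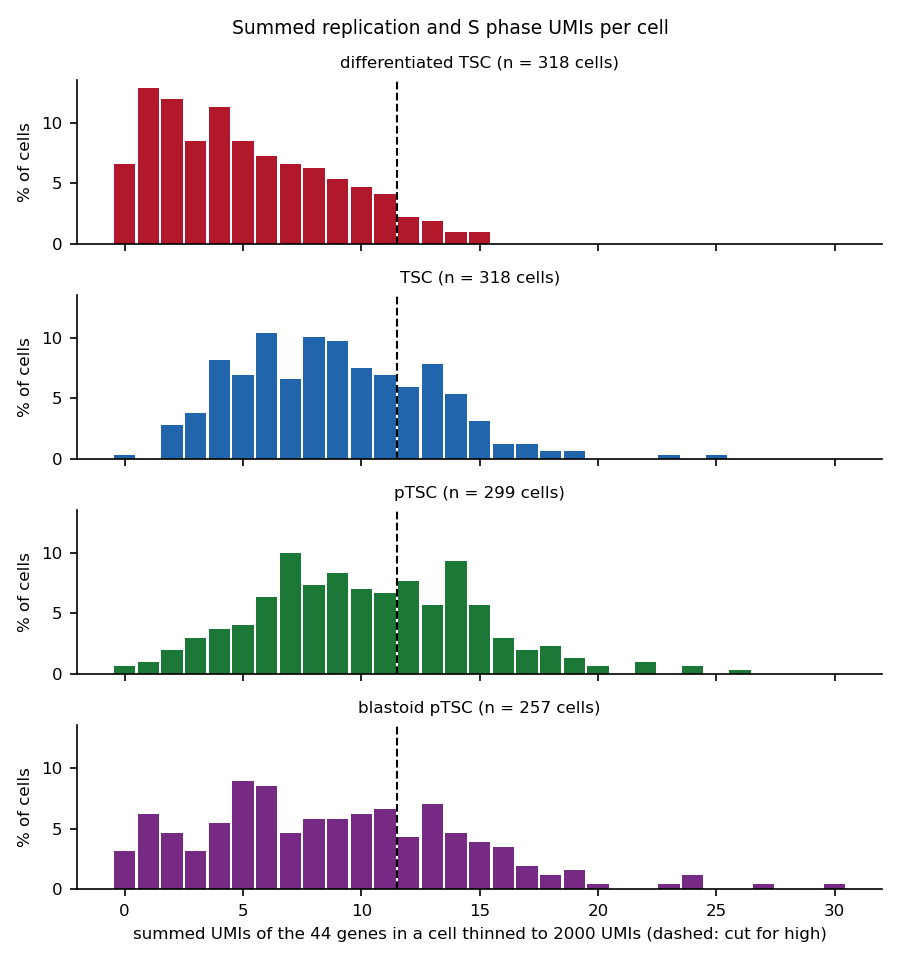
Share of cells (y axis, %) by summed UMIs of the 44 genes in a cell thinned to 2000 UMIs (x axis), 1 panel a library, with the cut of 12 dashed. Differentiated TSCs pile up at low sums (median 4) and blastoid pTSCs spread from 0 to 30.

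The median sum was 4, 9, 10 and 8 UMIs, and the variance over the mean was 2.69, 1.81, 2.10 and 3.46. A value of 1 is what counting alone gives for a gene with 1 level in all cells. The differentiated and blastoid libraries were thus the most uneven between cells. Over the 25 genes with at least 100 UMIs, Rrm2 had the highest value in each library, with 2.06, 1.46, 2.26 and 3.30, which in pTSCs was above that of the sum. The other 24 of these genes had at most 1.64, 1.26, 1.43 and 1.78. Its mean per thinned cell was 0.431, 0.965, 3.90 and 2.35 UMIs. For equally uneven genes the variance over the mean rises with the mean. It therefore does not rank genes of unlike level by unevenness. Mcm5 had 1.78 and Ccne1 1.26 in blastoid pTSCs, and Ccne1 had 1.64 and Cdt1 1.42 in differentiated TSCs.

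The sum of the 44 genes was then set beside the sum of 36 mitosis and G2 phase genes in the same cells. Pearson's r was 0.45 in differentiated TSCs (n = 318 cells), 0.09 in TSCs (n = 318), 0.03 in pTSCs (n = 299) and 0.17 in blastoid pTSCs (n = 257), as a description, since cells of a library share its preparation. Spearman's rho was 0.64, 0.16, 0.055 and 0.32, higher than r in each library. In cells high for the mitosis list (at least 20 UMIs, a class that does not use the 44 genes), the 44 genes summed to 3762 CPM in differentiated TSCs, against 1795 CPM in cells low for it (at most 9 UMIs), a ratio of 2.10 (1.98 to 2.21, 45 and 195 cells). The ratio was 1.18 in TSCs (1.14 to 1.23), 0.90 in pTSCs (0.85 to 0.95) and 1.24 in blastoid pTSCs (1.18 to 1.31). In differentiated TSCs many single genes were higher in the cells high for mitosis genes. Rrm2 was 3.25-fold, Mcm5 2.82-fold, Ccne1 2.80-fold, Tipin 2.54-fold and Rfc1 1.35-fold higher. Other intervals held 1, such as those of Mcm6 (0.80, 0.24 to 2.18), Slbp (0.95, 0.49 to 1.74) and Gins3 (1.15, 0.56 to 2.20). In TSCs Rrm2, Mcm5, Ccne1, Tipin and Rfc1 had ratios of 1.42, 1.19, 1.07, 1.37 and 1.15. The interval lay below 1 there for Mcm4 (0.72) and E2f1 (0.29, 5 against 13 UMIs). In pTSCs the interval lay below 1 for Mcm2 (0.73), Mcm4 (0.74), Mcm5 (0.82), Hells (0.71) and Tyms (0.28, 3 against 26 UMIs), and above 1 for Rrm1 (1.40). In blastoid pTSCs Rrm2 had a ratio of 1.77 (1.60 to 1.96) and held 706 of the 2240 UMIs in cells high for mitosis genes. In cells low for them it held 853 of 3854 UMIs, so the ratio of the sum leaned partly on this gene. The interval also lay above 1 there for Gins1 (1.84), Rrm1 (1.61), Ccne1 (1.43) and Chaf1b (2.57, 12 against 10 UMIs). It held 1 for Mcm2 (1.07), Mcm5 (1.04), Cdt1 (0.95) and Tipin (1.18).

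**Figure D4:**
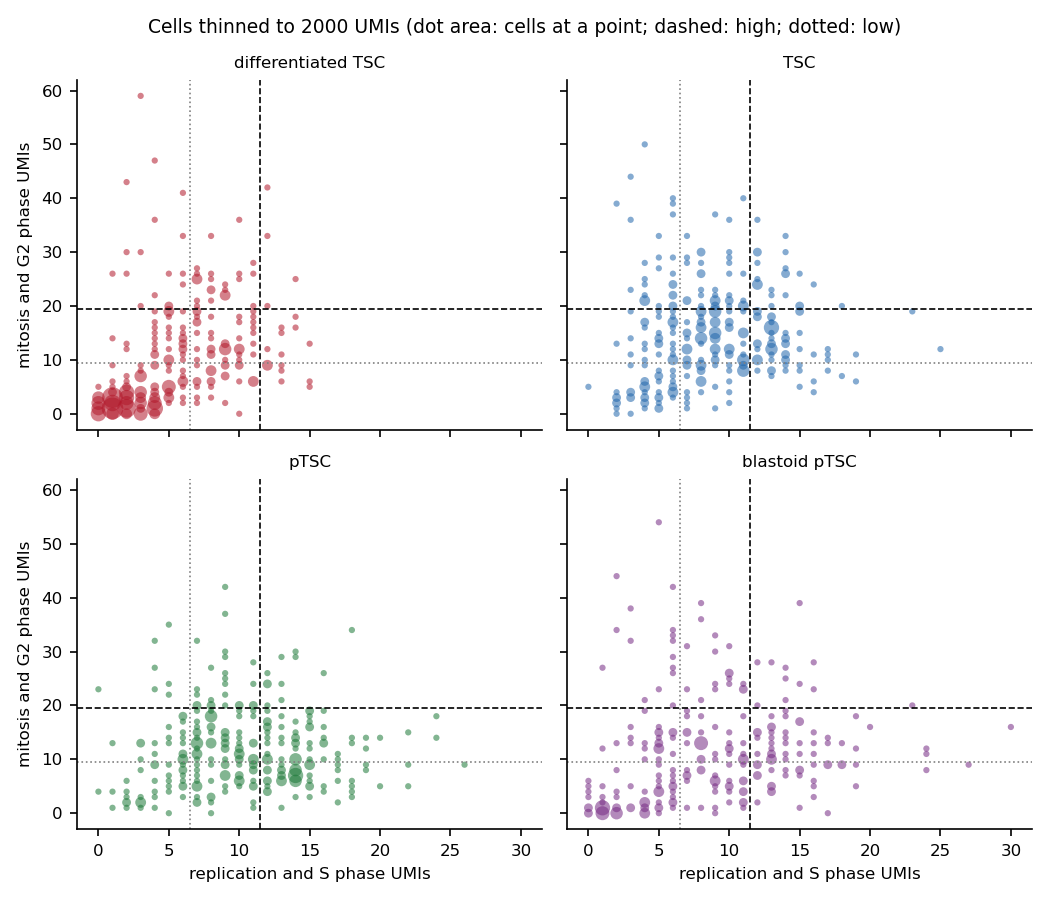
UMIs of the 44 replication and S phase genes (x axis) and of the mitosis and G2 phase genes (y axis) in cells thinned to 2000 UMIs, 1 panel a library, with dot area by the number of cells and lines at the cuts for high (dashed) and low (dotted). In differentiated TSCs 162 of 318 cells lie in the lower left corner, where both sums are low.

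Cells low for both sums (at most 6 and at most 9 UMIs, the 25th percentiles of TSCs) made up 50.9% of differentiated TSCs (162 of 318, 45.3 to 56.6), 14.2% of TSCs (45 of 318, 10.5 to 18.5), 11.7% of pTSCs (35 of 299, 8.29 to 15.9) and 24.9% of blastoid pTSCs (64 of 257, 19.7 to 30.7). Other markers were read in those cells. The differentiated trophoblast list had a median of 13 UMIs per thinned cell in the double-low differentiated TSCs and 3 in the others. In blastoid pTSCs it was 8 and 2, in TSCs 4 and 2, and in pTSCs 2 and 1. The TSC regulators had medians of 2 against 4 in differentiated TSCs, 6 against 10 in TSCs, 6 against 8 in pTSCs and 3.5 against 7 in blastoid pTSCs. Median depth before thinning was lower in the double-low cells (7648 against 9168 UMIs in differentiated TSCs, 13338 against 15394 in TSCs, 6788 against 6908 in pTSCs and 7559 against 8398 in blastoid pTSCs). The median share of mitochondrial UMIs was 23.3% against 21.7% in differentiated TSCs and 18.4% against 19.3% in blastoid pTSCs. Their part in the result was not tested. The further replication genes, which also did not enter the classes, had means of 5.30 and 9.61 UMIs in double-low and other differentiated TSCs, and 4.67 and 10.1 in blastoid pTSCs.

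In the blastoid library 11 wells held at least 3 UMIs of the epiblast genes Tdgf1 and Fgf4 together, 98 UMIs in all, and no well of another library did. Their median sum of the 44 genes was 13. Without them the share of high cells was 29.7% and the log2 ratio of the sum against pTSCs was -0.21, in place of -0.19.

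The bulk and single-cell tables did not list the 44 genes at like levels. Counts were pooled over the 6 bulk and the 4 single-cell libraries and expressed as CPM, of all counts in bulk and of UMIs outside mitochondrial genes in single cells. Of the 44 genes, 15 were at least 10-fold lower in the single-cell than in the bulk table, and 1, Hells, was at least 10-fold higher (160 against 12.1 CPM). Dnmt1 measured 298 CPM in bulk and 0.672 in single cells (9 UMIs), Gmnn 201 and 0.149, Lig1 152 and 0.672, Pold1 156 and 1.64, Rpa1 169 and 1.87, Uhrf1 102 and 0.373, and Mcm3 119 and 1.12. Rrm2 (273 and 774), Cdt1 (295 and 466), Mcm5 (175 and 329) and Ccne1 (248 and 309 CPM) were higher in the pooled single cells. This did not hold in each library: Rrm2 in differentiated TSCs (220.0 CPM) and Cdt1 in pTSCs (238 CPM) lay below bulk. Rrm2, Cdt1 and Mcm5 together held 38.6% of the single-cell UMIs of the 44 genes. The cause was not tested. Under 10 UMIs over both libraries, Mcm3, Cdc6, Gmnn, Gins2, Lig1, Uhrf1, Dnmt1 and Ccne2 were not measured in the differentiation comparison, and of these Ccne2 was near 1 CPM in bulk as well (0.928 and 0.821).

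**Figure D5:**
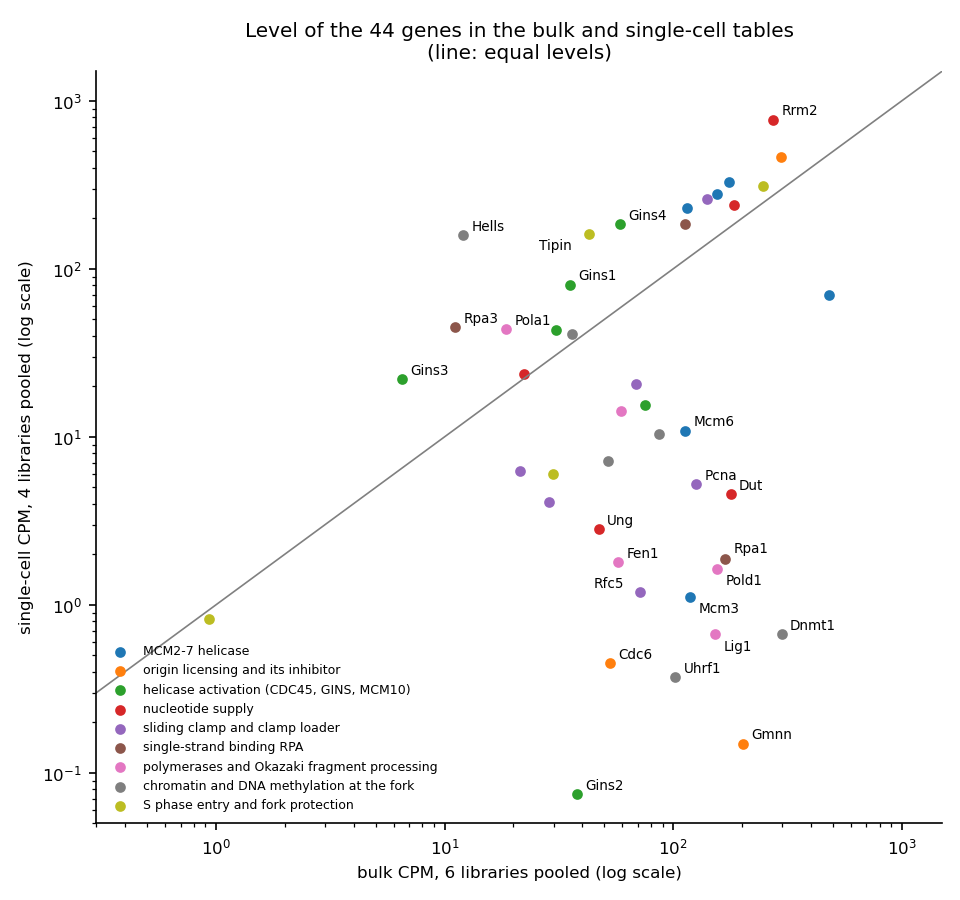
CPM of each of the 44 genes in the pooled single-cell libraries (y axis) against the pooled bulk libraries (x axis), both on log scales, coloured by role, with the line of equal levels. The 15 genes named below the line are at least 10-fold lower in single cells, among them Dnmt1, Gmnn and Gins2, and Hells lies highest above it.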

How the data were processed

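RNA was measured with CEL-Seq2 in 6 bulk and 4 single-cell libraries. Bulk values are whole counts per gene and library as deposited. Single-cell values are estimated counts of molecules per gene and well as deposited, whole in every well, and whether they were corrected for repeated molecular identifiers is not stated. Alignment used STAR 2.5.3a, per the submitters' processing notes. Genome build, annotation and counting program: not given in the sources used here. CEL-Seq2 reads lie near transcript 3′ ends, so counts depend on annotated ends and levels were not divided by length.

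Bulk counts were tested with edgeR 4.0.16 (filterByExpr, TMM, quasi-likelihood test) in R 4.3.3, with adjusted p under 0.05 as the call. DESeq2 1.42.0, DESeq2-type size factors, no filter, thinned libraries and leaving out each library were alternatives. Single-cell counts were summed per library over wells that held 2000 or more UMIs without mitochondrial genes (Python 3.11.15, scipy 1.17.1). Ratios carry exact conditional binomial intervals of 95%, which cover counting error only. Genes needed 10 UMIs over both libraries of a ratio. Scripts were tested on simulated data. By the naming rule every tested member is named in bulk, with all 6 libraries where the groups did not overlap or for the 4 most abundant others. In single cells CPM is given from 100 UMIs upward and UMIs for rarer members at least 2-fold apart. Genes outside the members come from the lists, and those named were picked after their values were seen. The members and lists were chosen with earlier results of these data known.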

Additional observations from a re-analysis of the deposited data

How the results depend on the processing

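No paired analysis was possible because no replicate number occurs in both bulk groups, and the single-cell groups have 1 library each. Of 326 alternative values, 269 stayed the same, 7 were weaker, 21 reversed and 29 moved. Those that stayed kept direction and side of the threshold, moved by less than their error or, as counts, stayed near the main count. The single call among the bulk genes, Rrm2, kept its direction throughout (log2 0.73 to 0.98 when each library was left out) but was lost in several settings: the number of the 44 genes called was 0 with DESeq2 and 0 with libraries thinned to the smallest total, and 0 to 1 when each library was left out. Over all genes the calls were 177 with edgeR, 76 with DESeq2, 113 with thinned libraries and 81 to 189 when each library was left out. Differences near 0 changed sign: with thinned libraries Mcm2 had 0.055 and Dnmt1 -0.039, and without the filter Chaf1b had 0.00017. Leaving out each library gave -0.51 to 0.16 for Mcm3, -0.057 to 0.46 for Mcm4, -0.37 to 0.066 for Mcm6, -0.10 to 0.39 for Cdt1, -0.029 to 0.25 for Gmnn, -0.12 to 0.43 for Dut, -0.40 to 0.28 for Chaf1b, -0.061 to 0.43 for Uhrf1 and -0.11 to 0.21 for Dnmt1. In single cells, the log2 ratio of the sum in differentiated TSCs was -0.72 as a mean over cells, -0.82 with mitochondrial genes in the total and -0.90 against pTSCs. For pTSCs against TSCs it reversed to -0.18 without Rrm2, Cdt1 and Mcm5, and with a minimum of 50 UMIs 2 genes were at least 2-fold higher. For blastoid pTSCs against pTSCs it was -0.26 with mitochondrial genes in the total and 0.011 without those 3 genes. There, genes at least 2-fold higher numbered 2 with wells from 1000 UMIs, 2 as a mean over cells and 0 with a minimum of 50 UMIs, which also left 0 lower. Shares of high cells, in the order differentiated TSC, TSC, pTSC, blastoid pTSC, were 1.89%, 12.9%, 26.4% and 19.5% with the cut at the 90th percentile. Without Rrm2, an alternative chosen after seeing the data, they were 10.7%, 32.7%, 18.7% and 23.0%. Without the 3 genes they were 9.75% in differentiated TSCs, 20.1% in pTSCs and 19.8% in blastoid pTSCs. Thinned to 4000 UMIs they were 10.5% in differentiated TSCs and 54.3% in pTSCs. Leaving out the 11 blastoid wells was also chosen after seeing the data. The cause of these changes was not tested. Few UMIs limit 19 of the 44 genes, and with 1 library a group, culture, line and library cannot be told apart in the single-cell differences.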
